A study of Caenorhabditis elegans with 2 samples.

Results

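The nuclear hormone receptor genes of the nematode Caenorhabditis elegans were read against the binding map of PQM-1, a zinc finger transcription factor. The receptor genes are the protein-coding genes of the WBcel235 annotation whose symbols begin with nhr-, together with daf-12, and they number 270 of 19973 protein-coding genes. The rule uses the symbol and no measured value, though the family was picked with earlier results of these data known. Chromatin immunoprecipitation followed by sequencing had been carried out on whole larvae at the L3 stage, with sexes pooled, in 1 group with 2 biological replicates. The strain was OP201, with the genotype unc-119(tm4063) III; wgIs201, so every animal carried both the unc-119 mutation and a transgene for pqm-1 fused to eGFP, and no second condition or untagged group was analysed here. The labels give pqm-1 as the antibody target, library fragments of 150 to 350 bp, and no age. Whole larvae hold every tissue, so a peak does not say in which cells PQM-1 was bound, and a weak peak and a peak present in few cells cannot be told apart.

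Nuclear receptors are transcription factors with a zinc finger domain that binds DNA and a domain that can bind a small lipophilic ligand such as a steroid or a fatty acid. Nematodes have a greatly expanded set of them, most of it derived from an HNF4-like ancestor, and many members sit in tandem arrays on chromosome V. PQM-1 is known for acting opposite to the FOXO factor DAF-16 under reduced insulin signalling and is linked to the GATA-like heptamer TGATAAG. Some receptors with known roles act in the same processes of fat, stress and food response in which PQM-1 has been studied.

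The authors' optimal list held 5560 peaks on the ce11 build, with signal values between 23.8 and 471.6 and a median of 43.6. Some of its peaks overlapped no peak of replicate 2, so a place in the list does not mean that both replicates had the peak. The signal is the authors' own score per peak, its scale is not stated, and it is used here only to rank and describe peaks within 1 list. Rank 1 is the strongest peak. A receptor gene is called bound at its promoter where an optimal summit lay between 1000 bp upstream and 250 bp downstream of its 5' end. Gene-body summits lie inside the gene beyond that window, and upstream intergenic summits lie more than 1000 bp upstream with no protein-coding gene body in between. Peak lists carry no reads, so the depth behind each value is unknown. With 1 group there is no test between conditions, and no test was made of the receptor genes against all genes, whose shares are given beside theirs as a description. The totals for all genes include the receptor genes.

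PQM-1 peaks lay at the promoters of 68 receptor genes (25.2% of 270), against 3260 of all protein-coding genes (16.3%). Gene-body summits were found in 31 receptor genes (11.5%), against 6.06% of all genes. Upstream intergenic summits were found at 60 receptor genes (22.2%), against 8.24% of all genes. At each place the share of receptor genes was above that of all genes. At least 1 of the 3 places was marked at 41.5% of receptor genes, against 25.8% of all genes, and 158 receptor genes had no optimal summit at any of them. Of the 68, 40 had a promoter summit alone, 16 also had an upstream one, 7 also had a gene-body one and 5 had all 3. A further 25 receptor genes were marked upstream only, 5 in the gene body only, and 14 in both of these places. In all, 210 distinct peaks were assigned to receptor genes, and no pair of receptor genes shared a promoter peak. A promoter peak of 1 receptor gene was in some cases also counted as an upstream peak of another, as at nhr-50 and nhr-63.

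**Figure D1:**
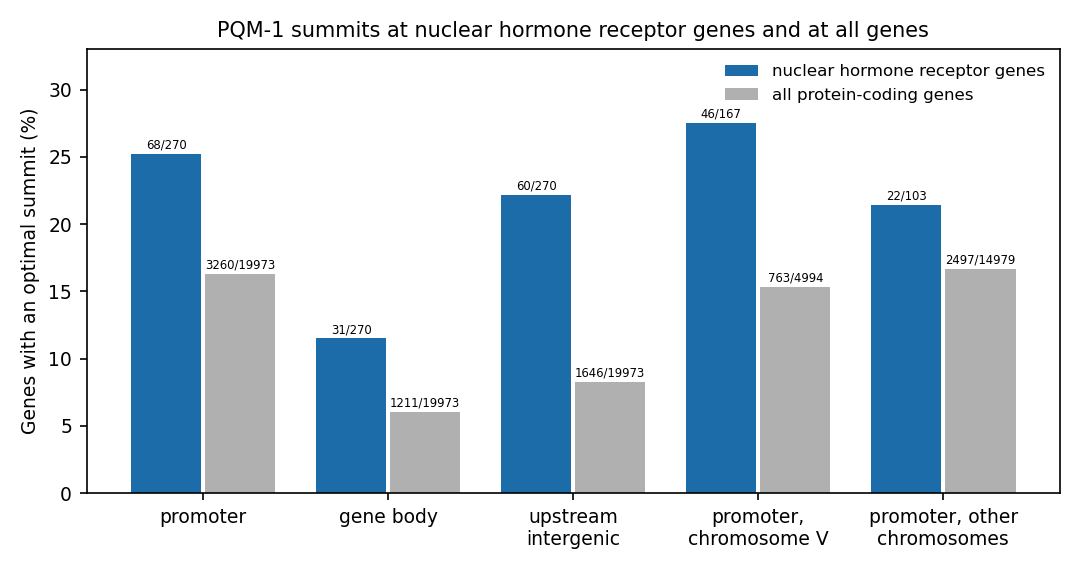
Share of genes with an optimal PQM-1 summit (vertical axis, percent) at each place, for nuclear hormone receptor genes (blue) and all protein-coding genes (grey); the numbers over the bars are bound genes over genes. The blue bar is the taller one of each pair, at 25.2% against 16.3% for promoters.

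The upstream stretches and the genes were longer at the median in receptor genes than over all genes. The median stretch of intergenic sequence upstream of the 5' end was 1590 bp at receptor genes, against 937 bp over all genes, and the median gene length was 2312.5 bp, against 2027 bp. Among genes with a stretch over 1000 bp, where an upstream intergenic summit was possible at all, 60 of 170 receptor genes had one (35.3%), against 17.1% of all such genes. Promoter binding was split by the same measure. With a stretch of up to 1000 bp, 30 of 100 receptor genes were bound at the promoter (30%), against 18% of all such genes. With a stretch over 1000 and up to 3000 bp, 21 of 92 were bound (22.8%), against 16.4% of all such genes. With a stretch over 3000 bp, 17 of 78 were bound (21.8%), against 12.5% of all such genes. In all 3 classes the share of receptor genes was above that of all genes of the class.

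In each replicate alone the share of bound receptor promoters was also above that of all genes. When each replicate's own list was cut to its strongest 5560 peaks, 67 receptor genes were bound at the promoter in replicate 1 (24.8%), against 16.6% of all genes, and 72 in replicate 2 (26.7%), against 13.8% of all genes. The same 55 genes were bound in both lists, which is 82.1% of replicate 1's and 76.4% of replicate 2's. Of the 68 optimal calls, 63 were in replicate 1's list and 59 in replicate 2's. All 68 strongest promoter peaks overlapped some peak of replicate 1's full list and 66 (97.1%) some peak of replicate 2's, against 99.9% and 92.1% for all bound genes. In the looser list that the authors called on both replicates together, 155 receptor genes had a promoter summit (57.4%), against 45.1% of all genes, so 115 receptor genes had none even there.

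**Figure D2:**
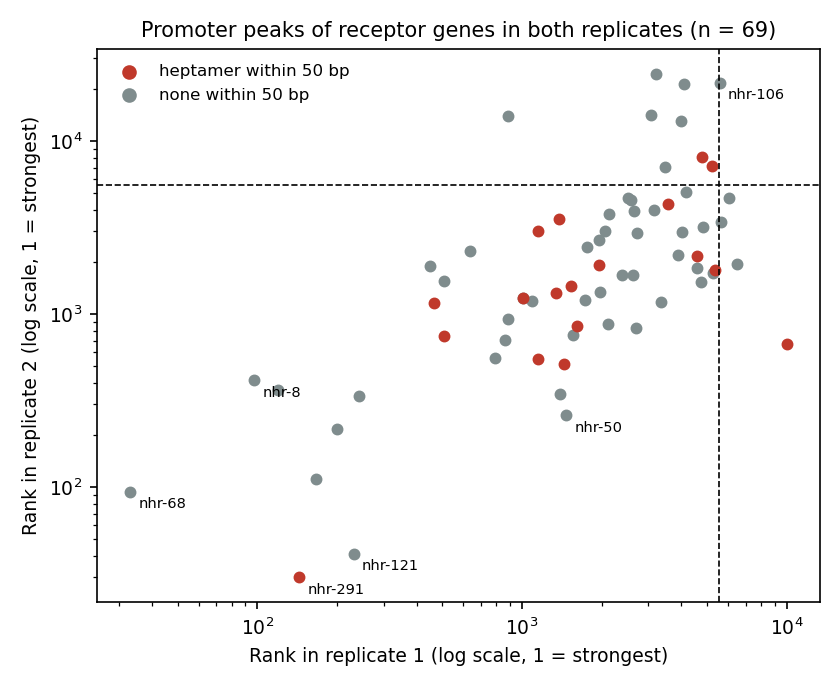
Rank of each receptor promoter peak in replicate 1 (horizontal, log scale) and replicate 2 (vertical, log scale), where 1 is the strongest; red points have the GATA-like heptamer within 50 bp of the summit and the dashed lines mark rank 5560. The 69 peaks with a rank in both replicates are drawn, and nhr-68, nhr-291, nhr-8 and nhr-121 lie at the strong end of both lists.

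The promoter peaks of receptor genes had a higher median signal than those of bound genes at large. The strongest promoter peak of the 68 bound receptor genes had a median signal of 54.4 and a median rank of 1968.5, against 43.7 and 2766 for the 3260 bound genes. Within the strongest 1000 peaks lay 19 of the 68 (27.9%), against 17.6% of all bound genes, and 45 (66.2%) within the strongest 2780, against 50.2%. The peaks of 8 of them (11.8%) were also in the promoter of another gene, against 38.7% of all bound genes. The window of 1 bound gene, nhr-255 on chromosome X, held 50-base stretches found elsewhere in the genome, 30 of its 52.

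The strongest receptor promoter peak was that of nhr-68 (chrV:11572927-11573225), whose product works with NHR-10 to switch on the propionate shunt, a breakdown route used when vitamin B12 is low. Its signal was 197.1 (rank 36), with 150.5 (rank 33) in replicate 1 and 43.31 (rank 94) in replicate 2, and its summit lay 343 bp upstream of the 5' end. The same summit was in the promoter of H12C20.7. The peak of nhr-291 (chrV:15318690-15318904) followed at 163.7 (rank 72), with 107.3 (rank 144) in replicate 1 and 55.65 (rank 30) in replicate 2. Next was nhr-8 (chrIV:7710895-7711161), a relative of daf-12 that acts in toxin resistance and sterol balance, at 148.2 (rank 120), with 117.5 (rank 97) in replicate 1 and 29.89 (rank 413) in replicate 2. All 3 peaks lay within the strongest 500 peaks of each replicate's list.

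The next 3 were close to one another in signal. The promoter peak of nhr-121 (chrIII:2455002-2455231) had a signal of 144.2 (rank 136), with rank 231 in replicate 1 and rank 41 in replicate 2. That of nhr-58 (chrV:532101-532312) had 142.7 (rank 140), with ranks 120 and 362 in replicates 1 and 2. That of nhr-203 (chrV:459543-459777) had 142.3 (rank 142), with ranks 166 and 111. The order of these 3 genes differed between the replicates, so neighbours in the order are not set apart by their signal. The other genes of the top 20, with signals falling from 135.3 to 73.16, were nhr-35, nhr-256, nhr-119, nhr-55, nhr-207, nhr-135, nhr-193, nhr-105, nhr-79, nhr-80, nhr-99, nhr-50, nhr-232 and nhr-3. Ranks of these 14 peaks in replicate 1 lay between 199 and 1463, and in replicate 2 between 216 and 2306. Of the 20 genes, 13 lie on chromosome V, as do 46 of the 68 bound receptor genes and 167 of all 270 receptor genes.

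The other 48 bound receptor genes followed, at 72.71 and below. A signal of 50 or more marked 17 of them, from nhr-178 (72.71) to nhr-201 (50.4), and all 17 peaks were within replicate 1's strongest 5560 peaks and 16 within replicate 2's. The exception was nhr-132 (64.44), with rank 888 in replicate 1 and rank 13966 in replicate 2. Signals from 30 to under 50 were given to 23 genes, from nhr-48 (49.61) to nhr-78 (31.13), of which 21 and 19 were within the strongest peaks of replicates 1 and 2. Below 30 were 8 genes, nhr-177, nhr-180, nhr-101, nhr-116, nhr-247, nhr-106, nhr-59 and nhr-32, of which 5 and 3 were within those lists. The optimal peaks of nhr-61 (33.66) and nhr-59 (25.01) overlapped no peak of replicate 2, although a different replicate 2 summit lay in the promoter of nhr-59. The opposite case was nhr-101 (27.02), a neighbour of nhr-68, with rank 10016 in replicate 1 and rank 669 in replicate 2. TGATAAG was within 50 bp of the strongest summit in 5 of the top 20 genes, 5 of the next 17, 3 of the 23 and 3 of the last 8.

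More than 1 promoter summit was found at 3 receptor genes, 1.11% of them, against 0.781% of all genes. The desaturase regulator nhr-80 had summits at 5 bp downstream (signal 85.52) and 578 bp upstream (66.55) of its 5' end, both also in the promoter of H10E21.1. The low-oxygen response gene nhr-57 had overlapping peaks of 65.17 and 36.83, which matched the same peak of each replicate, so each replicate alone gave it 1 promoter summit. The last of these, nhr-232, had 82.47 at 59 bp downstream and 34.83 at 922 bp upstream, of which 1 was left in replicate 2 alone.

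The strongest promoter summits of receptor genes had a median position 152.5 bp upstream of the 5' end (range 880 bp upstream to 194 bp downstream), against 211.5 bp upstream over all bound genes. At or downstream of the 5' end lay 13 of the 68 (19.1%), against 7.91%. Within 250 bp upstream lay 26 (38.2%), against 48.2%. Over 250 and up to 500 bp upstream lay 18 (26.5%), against 21.6%, and beyond 500 bp lay 11 (16.2%), against 22.3%. Summits just inside the gene thus made up a larger share at receptor genes, and summits just upstream a smaller one, than at bound genes at large.

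**Figure D3:**
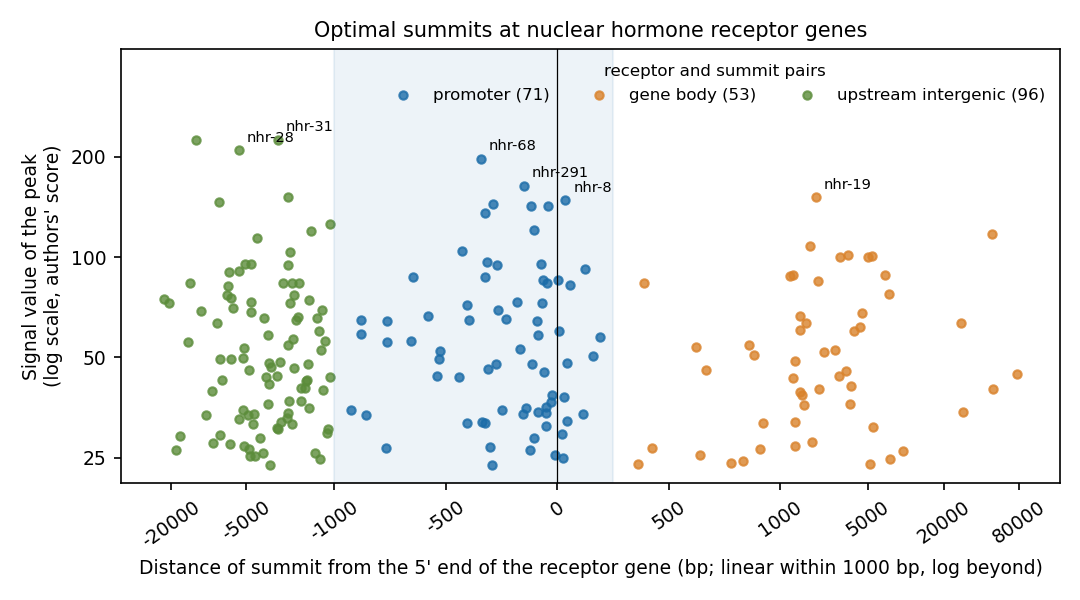
Position of each optimal summit relative to the 5' end of its receptor gene (horizontal, bp, linear within 1000 bp and logarithmic beyond) against the signal of its peak (vertical, log scale); the shaded band is the promoter window. The 71 promoter, 53 gene-body and 96 upstream pairs of gene and summit overlap in signal, and the highest points are upstream peaks at 225.2 and 209.2.

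The sequence around the summits is shown for peaks with and without the heptamer TGATAAG, which reads CTTATCA on the other strand, because strong receptor peaks were found in both classes. Each stretch is 101 bases of ce11 centred on the summit and read 5' to 3' on the strand of the receptor gene. Capitals mark TGATAAG or its 6-letter parts GATAAG and TGATAA, on either strand.
nhr-31 upstream (chrIV:8032274-8032374, minus strand, signal 225.2): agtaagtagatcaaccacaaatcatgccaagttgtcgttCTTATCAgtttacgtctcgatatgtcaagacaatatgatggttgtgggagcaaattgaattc
nhr-291 promoter (chrV:15318761-15318861, plus strand, signal 163.7): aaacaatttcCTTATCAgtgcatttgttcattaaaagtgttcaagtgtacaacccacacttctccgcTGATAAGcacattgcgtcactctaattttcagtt
nhr-55 promoter (chrV:477797-477897, plus strand, signal 96.34): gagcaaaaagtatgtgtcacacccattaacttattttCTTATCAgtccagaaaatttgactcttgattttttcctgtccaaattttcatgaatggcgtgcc
nhr-80 second promoter peak (chrIII:15397-15497, minus strand, signal 66.55): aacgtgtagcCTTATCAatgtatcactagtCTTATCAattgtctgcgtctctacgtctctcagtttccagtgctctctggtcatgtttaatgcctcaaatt
nhr-28 upstream (chrX:16349179-16349279, plus strand, signal 209.2): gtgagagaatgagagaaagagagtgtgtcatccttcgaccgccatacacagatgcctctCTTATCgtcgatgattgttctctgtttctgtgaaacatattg
nhr-68 promoter (chrV:11573047-11573147, plus strand, signal 197.1): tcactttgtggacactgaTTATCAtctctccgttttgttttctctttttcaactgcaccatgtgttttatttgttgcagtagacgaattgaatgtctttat
nhr-121 promoter (chrIII:2455045-2455145, minus strand, signal 144.2): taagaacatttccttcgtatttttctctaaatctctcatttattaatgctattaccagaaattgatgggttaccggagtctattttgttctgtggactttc
nhr-203 promoter (chrV:459626-459726, plus strand, signal 142.3): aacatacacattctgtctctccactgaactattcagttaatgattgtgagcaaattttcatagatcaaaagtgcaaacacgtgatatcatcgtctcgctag
The first 4 stretches hold the whole heptamer, those of nhr-28 and nhr-68 hold a 6-letter part, and those of nhr-121 and nhr-203 hold neither.

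TGATAAG lay within 50 bp of the summit, on either strand, in 18 of 71 receptor promoter peaks (25.4%), against 21.9% of all optimal peaks in promoters. At positions 500 bp from the summits, toward lower coordinates, windows of equal size gave 2.82% and 2.65%. Away from promoters the heptamer was found in 7 of 53 gene-body peaks (13.2%) and 14 of 93 upstream peaks (15.1%) of receptor genes. Both shares were below the 23.9% of all optimal peaks, and the shares over all peaks of these places were not counted. Over all 210 receptor peaks the share was 18.1%, against 23.9% of all 5560 optimal peaks. The share in receptor promoter peaks was therefore near that of promoter peaks at large, while the share over all receptor peaks was below that of all optimal peaks.

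Other short motifs were counted the same way, both strands, and overlaps with TGATAAG were kept. The 6-letter GATAAG was in 35.2% of receptor promoter peaks, against 28.5% of all promoter peaks, and TGATAA in 35.2%, against 39.4%. The related AGATAA was in 16.9%, against 11.4%. CACGTG, the E-box core, was in 7.04%, against 4.18%, and GAGAGAG in 11.3%, against 7.77%. GTAAACA, the letters of the DAF-16 binding element, were in 0 of 71 receptor promoter peaks, against 3.56% of all promoter peaks. With 71 peaks a single peak is worth over 1 percentage point, so these shares are coarse.

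TGATAAG was present anywhere in the promoter window of 72 receptor genes (26.7%), against 24.2% of all genes. Of those 72 genes 33 were bound (45.8%), against 27.9% of all genes that had it. Of the 198 receptor genes without it 35 were bound (17.7%), against 12.6% of all genes without it.

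The gene-body summits of receptor genes lay almost entirely in introns, and the same share was not computed over all genes. Of the 53 in receptor genes, 51 were in introns, 21 of these in intron 1, while 2 were in untranslated exon sequence and 0 in coding exons of the gene's longest model. Their signals ran from 23.89 to 151.4 with a median of 45.8, against a median of 52.9 for the 71 receptor promoter peaks. Within replicate 1's strongest 5560 peaks lay 46 of the 53 (86.8%), and within replicate 2's lay 35 (66%), against 66 (93%) and 60 (84.5%) of the promoter peaks.

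Several receptor genes with no promoter peak carried strong intronic ones. On chromosome II, nhr-19 had 6 intronic summits and 1 upstream. The strongest (chrII:9603522-9603735, intron 2, 1914 bp downstream of the 5' end) had a signal of 151.4 (rank 108), with rank 89 in replicate 1 and rank 334 in replicate 2. The 103 kb gene nhr-27 on chromosome X had 6 summits in intron 1, the strongest at 117 (chrX:12759809-12759952, rank 294). Inside nhr-27 lie 11 other protein-coding genes, and 1 of its summits was in the promoter of one of them, pgp-12. On chromosome IV, nhr-46 had 108 (chrIV:5756047-5756219) and 101.3 (chrIV:5754352-5754481) in intron 1. Receptor genes with a gene-body summit of any signal and no promoter summit numbered 19. The same count was not made over all genes. Weak peaks are among them, as at nhr-40 (23.96), and the summit of nhr-146 (26.69) was in untranslated exon sequence. The others among the 8 with the strongest gene-body peaks were nhr-66 (88.23), a partner of NHR-49, nhr-11 (83.57, with TGATAAG), nhr-34 (77.49), nhr-120 (60.55) and daf-12 (59.91). When the 5' ends of all transcripts were used, nhr-66 and nhr-11 did have a promoter summit.

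Upstream intergenic summits reached far from their genes. Over 96 pairs of receptor gene and summit the median position was 3329 bp upstream, the nearest 1077 bp and the farthest 22713 bp, and 65 lay within 5000 bp. The 93 distinct upstream peaks had a median signal of 48.3, from 23.87 to 225.2, and 84 (90.3%) and 70 (75.3%) of them were within the strongest 5560 peaks of replicates 1 and 2. Of the upstream peaks, 12 were also in the promoter of another gene. The strongest receptor peak of the whole list lay here, between the divergent genes nhr-31 and nhr-258, whose 5' ends are 15425 bp apart. This peak (chrIV:8032190-8032468) had a signal of 225.2 (rank 20), with 160.2 (rank 25) in replicate 1 and 65.42 (rank 15) in replicate 2. It was 2811 bp upstream of nhr-31, a gene needed for the form and function of the excretory cell, and 12614 bp upstream of nhr-258. The position alone does not say to which gene it belongs.

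Marked upstream only, beside nhr-258, was nhr-28 on chromosome X, with peaks of 209.2 (chrX:16349036-16349359, rank 26) at 5747 bp upstream and 146.1 (chrX:16346528-16346760, rank 129) at 8325 bp upstream. The 209.2 peak had rank 38 in replicate 1 and rank 14 in replicate 2. The upstream peak of nhr-112 (chrV:16726022-16726246, 2307 bp upstream) had 151.1 (rank 109), with rank 130 in replicate 1 and rank 110 in replicate 2. Further genes marked upstream only were nhr-20 (95.38), nhr-162 (94.61) and nhr-37 (91.02). In replicate 2 alone, nhr-28 and nhr-112 each also had 1 promoter summit among the strongest 5560 peaks, so for these genes the class rests on both replicates being used.

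Of the receptor genes, 12 had 4 or more optimal summits over the 3 places, 4.44% of them, against 0.976% of all genes. The 3 places span the whole gene and its upstream stretch, so longer ones leave more room for summits. The part of length in this difference was not tested. On X lie 6 of them (daf-12, nhr-1, nhr-27, nhr-35, nhr-48 and nhr-173), 5 on IV (nhr-31, nhr-34, nhr-46, nhr-66 and nhr-105), 1 on II (nhr-19) and 0 on V. The largest number was 8, at nhr-46, with 3 summits in intron 1 and 5 upstream, the farthest of them 22713 bp away. At nhr-31 there were 6, with 225.2 and 33.64 upstream, 55.79 in the promoter, 99.9 and 54.41 in intron 1 and 31.01 in intron 6. Upstream peaks also outnumbered the single promoter peak at nhr-1, with 5 upstream (up to 68.71) and 34.68 at the promoter. At nhr-105 the upstream peak 2250 bp away (103.9) was above its promoter peak (87.43), but it ranked 183 in replicate 1 and 9311 in replicate 2. An intronic peak of nhr-66 (51.93) and an upstream peak of nhr-105 (31.66) had no match in replicate 2.

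Receptors with known roles were taken from lists of named receptors, 37 genes in all. These lists, and those of partner genes further on, were written with earlier results of these data in view, so their counts are descriptions of small sets. Of these 25 (67.6%) had a summit at some place, against 87 of the other 233 receptor genes (37.3%), and 13 (35.1%) had a promoter summit, against 55 (23.6%). The 37 also have longer upstream stretches, with a median of 5466 bp, against 1358 bp, and longer genes, with a median of 5044 bp, against 2173 bp. The part of gene size in this difference was not tested.

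**Figure D4:**
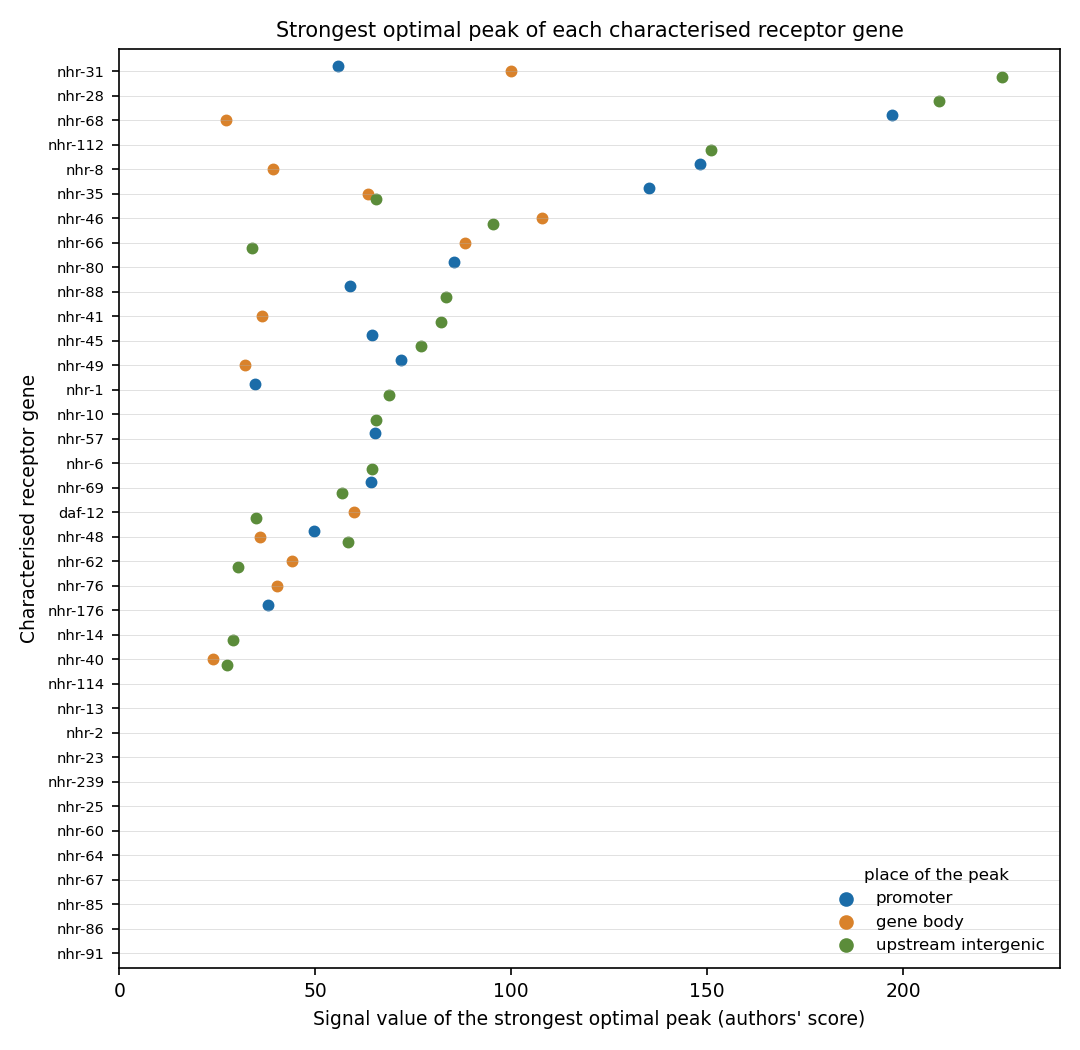
Signal of the strongest optimal peak at the promoter (blue), in the gene body (orange) and upstream (green) of each of 37 receptor genes with known roles, ordered by their highest peak; the horizontal axis is the authors' score. The top rows are nhr-31, nhr-28 and nhr-68, and 12 genes at the bottom have no optimal peak at any place.

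Among receptors conserved outside nematodes, 2 of 10 had a promoter summit, near the 16.3% of all genes, and 5 had a summit at some place, against 25.8% of all genes. The promoter genes were nhr-8 and nhr-48, a second relative of daf-12 (49.61, rank 2273). The dauer and developmental timing receptor daf-12 had no promoter summit. It had 3 intronic peaks of 59.91, 27.85 and 26.15 and upstream peaks of 34.88 and 28.59. Upstream peaks marked nhr-6, an NR4A-type receptor (64.57), and nhr-41 (82.08), which also had an intronic peak of 36.32. The other 5 had no optimal summit at any place, namely the ROR-type molting regulator nhr-23, the SF-1-type nhr-25, the tailless-type nhr-67, the Rev-erb-type nhr-85 and nhr-91.

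Receptors of molting, timing and patterning had promoter summits in 0 of 9 genes, against 16.3% of all genes, and 4 had a summit elsewhere, against 25.8% of all genes at any place. Besides nhr-6, nhr-41 and daf-12, the fourth was nhr-40, with weak peaks of 23.96 in an intron and 27.51 upstream. Without replicate 1 nhr-40 had 1 promoter summit, so the count of 0 did not hold in replicate 2 alone. Nor did it hold with the 5' ends of all transcripts, where nhr-40 also had a promoter summit. The other 5, nhr-23, nhr-25, nhr-60, nhr-67 and nhr-85, had no optimal summit at any place.

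Receptors of lipid metabolism and fasting had promoter summits in 3 of 9 genes, against 16.3% of all genes, and a summit at some place in 6, against 25.8% of all genes. The HNF4-type nhr-49, which drives fatty acid oxidation and desaturation, had a promoter peak of 71.86 (rank 1186) at 404 bp upstream, with ranks 1552 and 755 in replicates 1 and 2, and an intronic peak of 32.12. Its neighbour nhr-69 had a promoter peak of 64.34 (rank 1467) with TGATAAG near the summit, and nhr-80 had the promoter pair given above. Gene-body peaks marked nhr-66 (88.23), nhr-62 (43.98), which acts in the response to dietary restriction, and nhr-76 (40.33). When the 5' ends of all transcripts were used, nhr-66 and nhr-62 also had a promoter summit. No optimal summit lay at nhr-13, nhr-25 or nhr-64, although nhr-64 had a promoter summit of 22.71 in the looser list.

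Receptors of toxin, pathogen and low-oxygen responses had promoter summits in 4 of 6 genes, against 16.3% of all genes, and a summit at some place in 5, against 25.8% of all genes. Besides nhr-8 and nhr-57 these were nhr-45, which acts in responses to mitochondrial toxins (64.61, with a stronger upstream peak of 76.94), and nhr-176, needed for breakdown of the drug thiabendazole (37.93). The fifth was nhr-112, through its upstream peak. The pathogen sensor nhr-86 had no optimal summit.

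Of the 3 receptors of vitamin B12 and propionate or methionine metabolism, 1 had a promoter summit, against 16.3% of all genes. A summit at some place was found in 2, against 25.8% of all genes. The promoter peak, given above, was that of nhr-68. Its partner nhr-10 had no promoter peak but 2 upstream ones, the stronger at 65.55 and 1368 bp upstream. The remaining one, nhr-114, had no optimal summit at any place. Among 9 other receptors with some description, 4 had a promoter summit, against 16.3% of all genes. A summit at some place was found in 7 of them, against 25.8% of all genes. Promoter peaks marked nhr-35 (135.3), nhr-88 (58.94), nhr-31 (55.79) and nhr-1 (34.68). Another 3, nhr-28, nhr-46 and nhr-14, were marked elsewhere, the last by a single upstream peak of 29.01 that overlapped no peak of replicate 2, and nhr-2 and nhr-239 had no optimal summit.

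Genes that work with these receptors were read the same way. The 4 receptors of the superfamily under other names, sex-1, fax-1, unc-55 and odr-7, had 0 summits at any place, where 25.8% of all genes had one. Of 9 genes that make, carry or read the DAF-12 ligand, 3 had a promoter summit, against 16.3% of all genes, namely the sterol methyltransferase gene strm-1 (25.53), the P450 reductase gene emb-8 (44.62) and the corepressor gene din-1 (40.28). Stronger peaks lay outside the promoter at emb-8 (152.3 upstream) and din-1 (100.8 in the gene body). The NPC1-type gene ncr-1 had 86.45 in the gene body, and daf-9, daf-36, dhs-16, hsd-1 and ncr-2 had none at any place.

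Of 8 genes around NHR-49, 4 had a promoter summit, against 16.3% of all genes. These were the acyl-CoA synthetase gene acs-2 (115.9), the dehydrogenase gene hacd-1 (125.7), the flavin monooxygenase gene fmo-2 (102.2) and the desaturase gene fat-6 (33.34). The desaturase gene fat-5 had an upstream peak of 159.1, while fat-7, ech-1.1 and the Mediator subunit gene mdt-15 had none at the places counted. The nearest optimal summits lay beyond the genes, 2383 bp downstream of the 5' end of fat-7 (123.4) and 6635 bp downstream at ech-1.1 (192.9). For mdt-15 the nearest lay 1968 bp upstream (46.57). Of 7 propionate breakdown genes, 3 had a promoter summit, against the same 16.3%. These were hphd-1 (85.75) and alh-8 (28.13) of the shunt and pcca-1 (36.59) of the vitamin B12 route. Its partner pccb-1 had 66.37 in the gene body, and acdh-1, hach-1 and mmcm-1 had none at the places counted.

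Most receptor genes and most bound ones lie on chromosome V. There 46 of 167 receptor genes were bound at the promoter (27.5%), against 15.3% of all genes on V. On the other chromosomes 22 of 103 were bound (21.4%), against 16.7% of all genes there. On X the count was 8 of 24 (33.3%), against 17.2% of all genes, and on chromosome I it was 2 of 23 (8.7%), against 16.9%. The pair on I was nhr-49 and nhr-69, which are neighbours.

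Runs were formed from receptor genes lying within 5 kb of one another. There were 41 runs with 142 genes, the longest with 9. Bound promoters were found at 38 of the 142 genes in runs (26.8%), against 30 of the 128 receptor genes standing alone (23.4%). In 23 runs no gene was bound, in 11 at least 2 were bound, and in 3 every gene was bound. The last 3 were nhr-49 with nhr-69, nhr-101 with nhr-68, and nhr-246 with nhr-291 and nhr-247. In the run of nhr-291 its peak of 163.7 stood beside peaks of 33.86 at nhr-246 and 26.4 at nhr-247, and all 3 summits had TGATAAG within 50 bp.

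**Figure D5:**
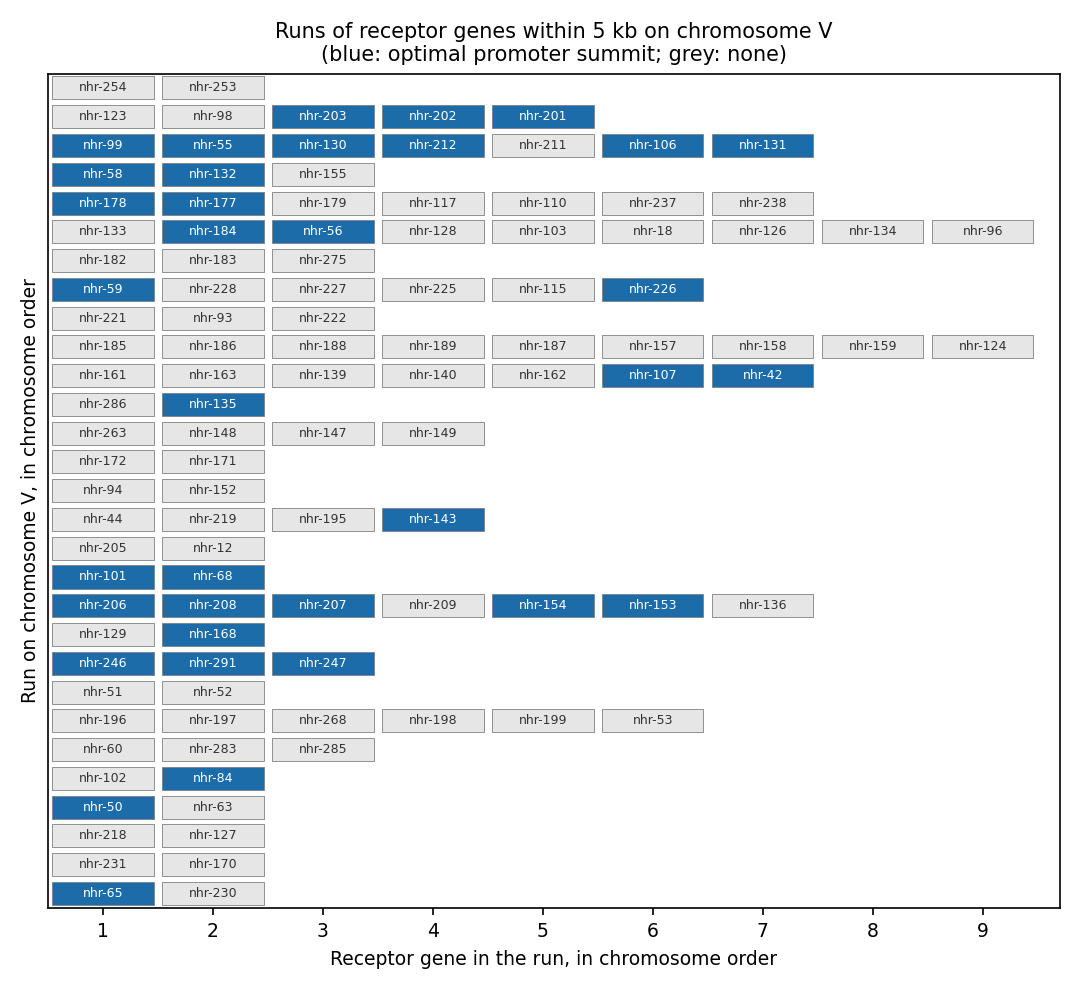
Runs of receptor genes lying within 5 kb of one another on chromosome V, 1 run per row from the lower end of the chromosome at the top; each box is a gene, blue with an optimal promoter summit and grey without. The rows that start with nhr-123 and nhr-99 hold 3 and 6 bound genes, and the run from nhr-185 to nhr-124, with 9 genes, holds 0. Over all genes on V the bound share was 15.3%.

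Arrays on V differed in how many of their genes were bound, and the 4 given here were chosen after their values were seen. In a stretch of 90 kb at the lower end (chrV:451451-541485) 11 of 16 receptor genes were bound, against 1 of 14 other genes, the lipase gene lipl-3. The bound ones were nhr-203, nhr-202, nhr-201, nhr-99, nhr-55, nhr-130, nhr-212, nhr-106, nhr-131, nhr-58 and nhr-132, with signals from 142.7 at nhr-58 to 25.42 at nhr-106. In the run from nhr-206 to nhr-136 (chrV:12092006-12109313) 5 of 7 were bound, with signals of 95.41 at nhr-207, 59.87 at nhr-206, 45.07 at nhr-208, 35.46 at nhr-153 and 31.88 at nhr-154. Bound at the promoter were 0 of 9 in the run from nhr-185 to nhr-124 (chrV:3844429-3886204) and 0 of 6 in the run from nhr-196 to nhr-53 (chrV:15685716-15702363). The share over all genes on V was 15.3%, and 23 of the 41 runs held no bound gene. With so few genes, a count of 0 does not set these 2 runs apart from genes at large. The run from nhr-185 to nhr-124 did hold an optimal peak, upstream of nhr-185 (chrV:3851789-3852128, signal 73.16, rank 1139).

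Which of the weakest receptor peaks count as bound is set by the length of the optimal list. Just inside it were nhr-32 (23.83, rank 5556), nhr-59 (25.01, rank 5329) and nhr-106 (25.42, rank 5248). Just outside, in the looser list, were nhr-112 (23.19, rank 5694), nhr-183 (23.04, rank 5715) and nhr-17 (22.86, rank 5760). The peak of nhr-106 ranked 5576 in replicate 1 and 21700 in replicate 2, and that of nhr-32 ranked 6040 in replicate 1 and 4673 in replicate 2.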

How the data were processed

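Peak lists from chromatin immunoprecipitation of tagged PQM-1 in L3 larvae were used, from 2 biological replicates of 1 group, per the labels. The authors deposited, for ce11, a relaxed list per replicate (26022 and 30000 peaks), a relaxed list of both together (30000 peaks) and an optimal list of 5560 peaks. The signal value is a score that the authors deposited, with no stated scale, and the summit offset is another column as deposited. The sources used here name no aligner, peak caller or threshold. The control library, the signal tracks and the ce10 lists were not used here. Depth is unknown.

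Summits were set against the protein-coding genes of Ensembl 115 on WBcel235, the same assembly as ce11. A replicate peak was matched to an optimal peak by at least 1 bp of overlap, taking the strongest. Motifs were searched on both strands. No test was made, since there is 1 group. No receptor gene lies within 20 kb of pqm-1 or unc-119. The members and lists were chosen with earlier results of these data known. Named genes are the 20 with the strongest promoter peak, the 8 with the strongest gene-body peak and no promoter peak, the 6 with the strongest upstream peak only, those with 4 or more summits, 3 on each side of the end of the optimal list, and every gene of 10 lists. A gene outside this rule was named after its values were seen, as were the arrays and the split by upstream stretch. Assignment of summits to places was tested on simulated data. Python 3.11.15, numpy 2.4.6 and matplotlib 3.10.9 were used. The alternatives were each replicate alone, other list lengths, other promoter windows and 5' ends, and other motif windows and overlaps.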

Additional observations from a re-analysis of the deposited data

How the results depend on the processing

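Bound receptor promoters numbered 68. Leaving out 1 replicate and using the strongest 5560 peaks of the remaining one gave 67 to 72 for promoters, 26 to 34 for gene bodies (31 with both), 55 to 59 for upstream summits (60 with both) and 29 to 38 receptor peaks with TGATAAG (38 with both). Over all genes the promoter share was 13.8% without replicate 1, where 72 receptor genes were bound, and 16.6% without replicate 2, where 67 were. Shares over all genes are given here for promoters only. Without replicate 1, 59 of the 68 were kept, 9 lost and 13 gained, and without replicate 2, 63 were kept, 5 lost and 4 gained. List length moved the counts. The strongest 2780 peaks gave 45 promoters of the 270 receptor genes, against 8.19% of all genes, and 17 gene bodies. The strongest 1000 gave 19 promoters, against 2.88% of all genes, 9 gene bodies and 17 upstream. The relaxed list of both replicates gave 155 promoters (57.4%), against 45.1% of all genes, and 124 gene bodies. Counting only the first gene of each run within 5 kb left 41 bound of 169 (24.3%), against 16.3% of all genes. With TGATAAG within 25 bp, 19 peaks held it, and within 100 bp, 51. Promoter counts stayed within 53 to 86 under the other windows and 5' ends. The narrower window gave the 53, against 12.5% of all genes, and the wider one the 86, against 21.2%. The 5' ends of all transcripts gave 73, against 17.7% of all genes, and added nhr-11, nhr-137, nhr-40, nhr-62 and nhr-66. Among named genes, 334 of 408 recounts kept the same number of promoter summits. Part of this was fixed beforehand, because a named gene with no optimal promoter summit cannot gain any in a shorter cut of the optimal list. No paired analysis was possible because there is 1 group and no test. Unknown depth limits every call near the end of the list.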

Other observations

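A second heptamer, GCGTCTC, counted on both strands, was noticed in the windows around receptor promoter summits so it was chosen after the sequences were seen. It lay within 50 bp of the summit in 11 of 71 receptor promoter peaks (15.5%), against 209 of all 2753 promoter peaks (7.59%), and in windows 500 bp away the shares were 1.41% and 0.944%. Over all 210 receptor peaks the share was 7.14%, against 6.37% of all optimal peaks. The genes with it were nhr-1, nhr-57, nhr-58, nhr-65, nhr-80, nhr-84, nhr-90, nhr-119, nhr-193, nhr-212 and nhr-226. In 3 of the 71 peaks it occurred together with TGATAAG, and 45 (63.4%) had neither. Examples from 3 promoters, centred on the summit on the strand of the gene and with this heptamer in capitals, are given to show the letters around it.
nhr-119 (chrII:2800975-2801075, minus strand, signal 104.6): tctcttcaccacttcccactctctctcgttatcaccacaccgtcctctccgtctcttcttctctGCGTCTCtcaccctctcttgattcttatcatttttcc
nhr-84 (chrV:15880213-15880313, minus strand, signal 55.99): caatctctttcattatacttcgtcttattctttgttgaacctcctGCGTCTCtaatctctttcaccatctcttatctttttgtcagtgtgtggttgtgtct
nhr-65 (chrV:18838943-18839043, plus strand, signal 46.14): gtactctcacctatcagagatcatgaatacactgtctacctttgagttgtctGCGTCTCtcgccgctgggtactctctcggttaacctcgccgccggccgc
The stretch of nhr-119 also holds TGATAAG on the other strand, and the other 2 hold none.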
